A study of Homo sapiens with 12 samples.

Results

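In Proximity-CLIP footprints of HEK293 T-REx cells, 972 transcripts carried most of their footprint clusters in introns. A footprint is a short RNA fragment protected by a crosslinked protein, and a cluster is a place in a transcript where footprint reads pile up. The cluster counts of the 4 footprint libraries were added per gene, and a transcript was taken when it had at least 10 clusters and more than 50% of them lay in introns. Of 19892 genes, 6214 had at least 10 clusters, and the 972 mostly intronic transcripts were 15.6% of these. For comparison, 1098 genes had most of their clusters in coding sequence, 1357 in the 3′ UTR and 3 in the 5′ UTR. The transcripts were chosen by their cluster counts, so the cluster and read values below describe them and test nothing.

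Introns are cut out of the primary transcript by the spliceosome in the nucleus and are mostly degraded there, so that a protein contact in an intron is a contact with a primary transcript, an unspliced transcript or an excised intron. Intron sequence is bound by splicing regulators and hnRNP proteins, and some introns are processed further into microRNAs and small nucleolar RNAs (snoRNAs). HEK293 is a human embryonic kidney line, and T-REx cells carry the repressor that makes a transgene inducible by doxycycline.

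APEX2 is an engineered peroxidase that attaches biotin to proteins close to it. Stable inducible lines carried V5-APEX2-NES, sent to the cytoplasm by a nuclear export signal, V5-H2B-APEX2, held on chromatin by histone H2B, or Connexin43-EGFP-APEX2, placed at cell contacts. HEK293 T-Rex cells without APEX2 were the negative control. All 4 lines received 4-thiouridine (4SU), which crosslinks to proteins under ultraviolet light, and doxycycline for 16 h, then biotin-phenol for 30 min. The sources used here do not say whether a line is a single clone. Each line is listed with 1 total RNA, 1 streptavidin-bound RNA and 1 footprint sample, which makes 12 groups of 1 sample. No value therefore has a replicate error, and no p-value is given. Bound RNA of the negative control, APEX2-NES and Connexin43-APEX2 has values in gene tables of 2016 and 2017. That of H2B-APEX2 has values in the 2017 table only. Intervals are exact Clopper-Pearson 95% intervals and cover counting error only, since reads without molecular identifiers are not independent molecules.

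The number of clusters called was 20850 in the negative control (185487 reads), 45015 for APEX2-NES (575990 reads), 133881 for H2B-APEX2 (1741844 reads) and 23104 for Connexin43-APEX2 (270633 reads). H2B-APEX2 thus gave 60.1% of all clusters, and it weighs most in any sum over the lines. Over the tables of 2016 and 2017, bound RNA held between 8959049 and 22952389 reads per line. Total RNA held between 33672152 and 56785950 in 2017, and the total column of 2016, which names no line, held 32640059. Of 11 HEK293 markers, VIM was the highest in every total RNA library, while LHX1, PAX2 and SOX11 were listed at 0 in 1 or more of them. None of the 11 was among the mostly intronic transcripts, although 6 had at least 10 clusters.

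The footprint tables give a number of clusters per gene region and no positions, so the sequence under a cluster cannot be shown. What can be shown is the regulatory RNA that these introns are known to contain. Within the spans of the 972 transcripts lay 83 genes with a microRNA name on the same strand. Among them MIR670HG is a longer gene that itself spans MIR670. Of the 83, 74 had mature sequences in RefSeq (GRCh38.p14), and 94 mature sequences lay in introns of 59 hosts by GENCODE 29. SLIT2, the transcript with the most intron clusters, holds MIR218-1 at chr4:20529898-20530007 (hg19, plus strand), inside its own span at chr4:20254883-20622184. The sequences that follow are those of abundantly footprinted hosts (SLIT2, HOXB3, EIF4G3, ZFR and CAPN15), of well-known microRNAs in hosts with fewer clusters (EVL and C9orf3), and of pairs from different hosts with the same seed. They are written 5′ to 3′, and capitals mark the seed, bases 2 to 8, which pairs with target mRNAs.
hsa-miR-218-5p (SLIT2): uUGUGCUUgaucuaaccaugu
hsa-miR-218-1-3p (SLIT2): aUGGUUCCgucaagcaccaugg
hsa-miR-10a-5p (HOXB3): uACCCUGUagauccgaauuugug
hsa-miR-1256 (EIF4G3): aGGCAUUGacuucucacuagcu
hsa-miR-579-3p (ZFR): uUCAUUUGguauaaaccgcgauu
hsa-miR-3176 (CAPN15): aCUGGCCUgggacuaccgg
hsa-miR-342-3p (EVL): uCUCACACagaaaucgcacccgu
hsa-miR-23b-3p (C9orf3): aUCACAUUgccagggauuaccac
hsa-miR-27b-3p (C9orf3): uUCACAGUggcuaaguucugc
hsa-miR-548f-3p (ERBB4): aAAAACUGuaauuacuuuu
hsa-miR-548ar-3p (CDC16): uAAAACUGcaguuauuuuugc
hsa-miR-548aq-5p (IGF2BP2): gAAAGUAAuugcuguuuuugcc
hsa-miR-548ar-5p (CDC16): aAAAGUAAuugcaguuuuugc
hsa-miR-3666 (FOXP2): cAGUGCAAguguagaugccga
hsa-miR-4295 (VTI1A): cAGUGCAAuguuuuccuu

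miR-548f-3p of ERBB4 and miR-548ar-3p of CDC16 share the seed AAAACUG. miR-548aq-5p of IGF2BP2 and miR-548ar-5p of CDC16 share AAAGUAA, and miR-3666 of FOXP2 and miR-4295 of VTI1A share AGUGCAA. The hosts differed widely in how many clusters fell in their introns. SLIT2 had 285 of 336 clusters in introns, EIF4G3, a translation initiation factor, 128 of 152, HOXB3, a homeobox factor, 86 of 114, CAPN15, a calpain-family protease, 81 of 118 and ZFR, an RNA-binding zinc finger protein, 72 of 119. EVL, an actin regulator, had 16 of 18 and C9orf3, an aminopeptidase gene, 9 of 12. None of these counts says whether a cluster lay on the microRNA itself.

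Together the 972 transcripts held 38542 clusters, 25622 of them in introns (66.5%), and 350880 reads, 191237 of them in introns. They held 42.3% of all intron clusters of the series and 17.3% of all clusters. The median transcript had 26 clusters, the middle 50% lay between 17 and 49, and the highest was 336. The median intron share was 64.3%, with 232 transcripts over 75%, 42 over 90% and 14 with every cluster in an intron. At the lower edge, 319 transcripts had 10 to 19 clusters, 35 of them the minimum of 10, and 44 genes with 9 clusters were mostly intronic and were left out. Just inside the intron threshold were NIPBL (58 of 115), HNRNPUL1 (53 of 105), SKP2 (32 of 63), PNISR (63 of 124) and AKIRIN2 (25 of 49). Just outside, with exactly 50%, were TRAPPC10 (41 of 82), KLF12 (38 of 76), FANCA (27 of 54), ZFP82 (24 of 48) and ITCH (23 of 46), among 111 genes at that share.

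By line, the intron share of the clusters in these transcripts was 74.9% in H2B-APEX2 (95% interval 74.4 to 75.4, 22251 of 29709 clusters). It was 51.2% in the negative control (49.3 to 53.1, 1372 of 2678), 39.5% in Connexin43-APEX2 (37.5 to 41.5, 908 of 2300) and 28.3% in APEX2-NES (26.9 to 29.8, 1091 of 3855). The chromatin line stood highest and the cytoplasmic line lowest. The rule that chose the transcripts leans on the H2B-APEX2 counts, so nothing is read from the size of its lead within them. The intervals cover counting error in 1 library per line and not the spread between libraries. Over all genes the same order held, with 39.6% in H2B-APEX2, 14.1% in the negative control, 9.47% in Connexin43-APEX2 and 5.58% in APEX2-NES. In the genes mostly footprinted in the 3′ UTR the shares were 15.4%, 3.04%, 2.06% and 1.22%, and in those mostly footprinted in coding sequence 22.6%, 5.80%, 4.02% and 2.08%. The negative control, which carries no APEX2, thus had a larger intron share than the cytoplasmic and the cell-contact line in every one of these classes.

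**Figure D1:**
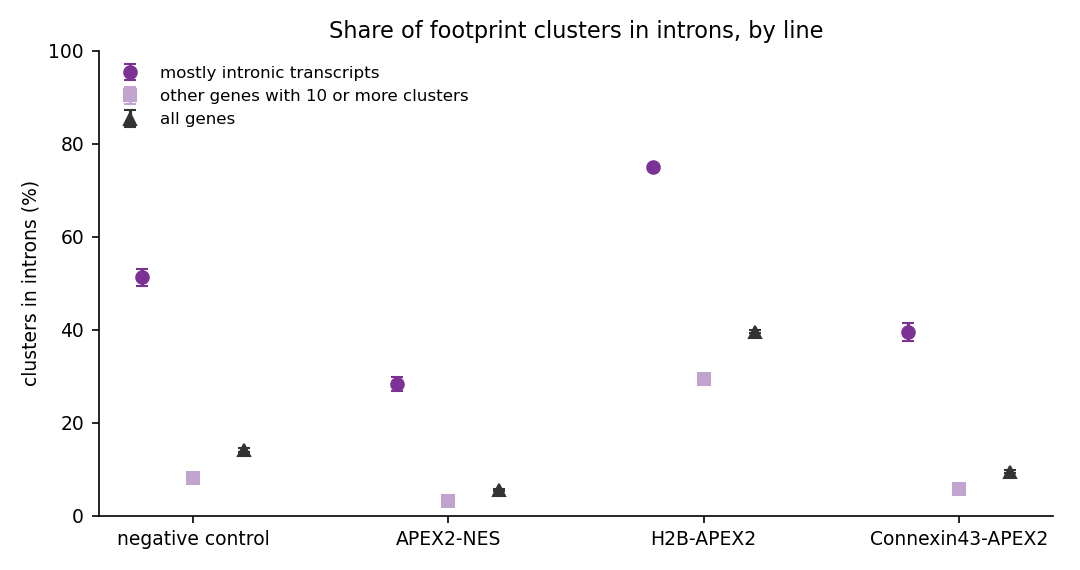
Share of footprint clusters in introns (%, y axis) in the 4 lines (x axis), for the 972 mostly intronic transcripts, the other 5242 genes with 10 or more clusters and all genes. Points are shares, bars are 95% Clopper-Pearson intervals (counting error only, 1 library per line), and the mostly intronic transcripts range from 28.3% in APEX2-NES to 74.9% in H2B-APEX2.

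What was not intronic in these transcripts also differed by line. Coding sequence held 39.4% of their clusters in APEX2-NES, 31.1% in Connexin43-APEX2, 26.7% in the negative control but 11.4% in H2B-APEX2. The 3′ UTR held 19.2%, 17.4%, 15.2% and 8.62% in the same order, and the 5′ UTR between 1.21% and 4.00%. In APEX2-NES the coding sequence therefore held more of these clusters than the introns did. The share of a line's clusters that lay in the 972 transcripts was 22.2% in H2B-APEX2 (22.0 to 22.4), 12.8% in the negative control (12.4 to 13.3), 9.95% in Connexin43-APEX2 (9.57 to 10.3) and 8.56% in APEX2-NES (8.31 to 8.83). Counted in reads the shares were 14.6%, 11.2%, 11% and 7.96%. In the 64 genes chosen without the H2B-APEX2 sheet the order turned, with 2.38% in the negative control above 2.15% in H2B-APEX2. These 64 were chosen by the counts of the other lines, so this order leans on that choice too.

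Every one of the 972 transcripts had an intron cluster in H2B-APEX2, 541 had one in the negative control, 400 in Connexin43-APEX2 and 394 in APEX2-NES. A median of 81.8% of a transcript's clusters came from H2B-APEX2. In 192 transcripts all 4 lines had intron clusters, and in 239 H2B-APEX2 alone did. Held to the rule in a single library, 870 passed in H2B-APEX2, 23 in the negative control, 17 in APEX2-NES and 13 in Connexin43-APEX2. The transcripts with 10 clusters in a single library numbered 879, 51, 112 and 43 in the same order. Without the H2B-APEX2 sheet, 64 genes of 3013 with 10 clusters passed, 62 of them among the 972. The number of mostly intronic transcripts therefore rests on the H2B-APEX2 library.

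SLIT2, a secreted guidance ligand of the Robo receptors, had 298 clusters in H2B-APEX2, 264 of them in introns. The negative control had 25 with 19 in introns, APEX2-NES 11 with 1, and Connexin43-APEX2 2 with 1. Its count in H2B-APEX2 was the highest of any of the transcripts, and Connexin43-APEX2, of about the depth of the negative control, had the fewest. ERC1, a scaffold protein that binds Rab GTPases, was spread more evenly, with 98 of 123 clusters in introns in H2B-APEX2, 40 of 42 in the negative control, 21 of 36 in APEX2-NES and 22 of 25 in Connexin43-APEX2. C16orf72, a stress response regulator, had 67 of 88, 21 of 27, 47 of 61 and 16 of 21 in the same order, and was thus mostly intronic in each line.

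MATR3, a nuclear matrix RNA-binding protein, had 114 of 138 clusters in introns in H2B-APEX2, 10 of 26 in the negative control, 9 of 31 in APEX2-NES and 4 of 23 in Connexin43-APEX2. RBM39, a splicing factor, had 112 of 139, 13 of 20, 9 of 23 and 6 of 14. Both were mostly intronic on chromatin and mostly footprinted outside introns in the cytoplasmic line. ANKRD11, a chromatin regulator, had 71 of 99, 6 of 12, 19 of 46 and 17 of 37. TRIO, an exchange factor for small GTPases, had 110 of 152, 3 of 11, 1 of 12 and 8 of 17. RFC3, a subunit of the clamp loader in DNA replication, had 131 of 153, 9 of 14, 8 of 16 and 3 of 5. NFIA, a transcription factor, had 136 of 155, 7 of 10, 3 of 14 and 3 of 7. XPO1, the nuclear export receptor, had 91 of 134, 4 of 22, 2 of 17 and 0 of 11, so that outside H2B-APEX2 6 of its 50 clusters were in introns.

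**Figure D2:**
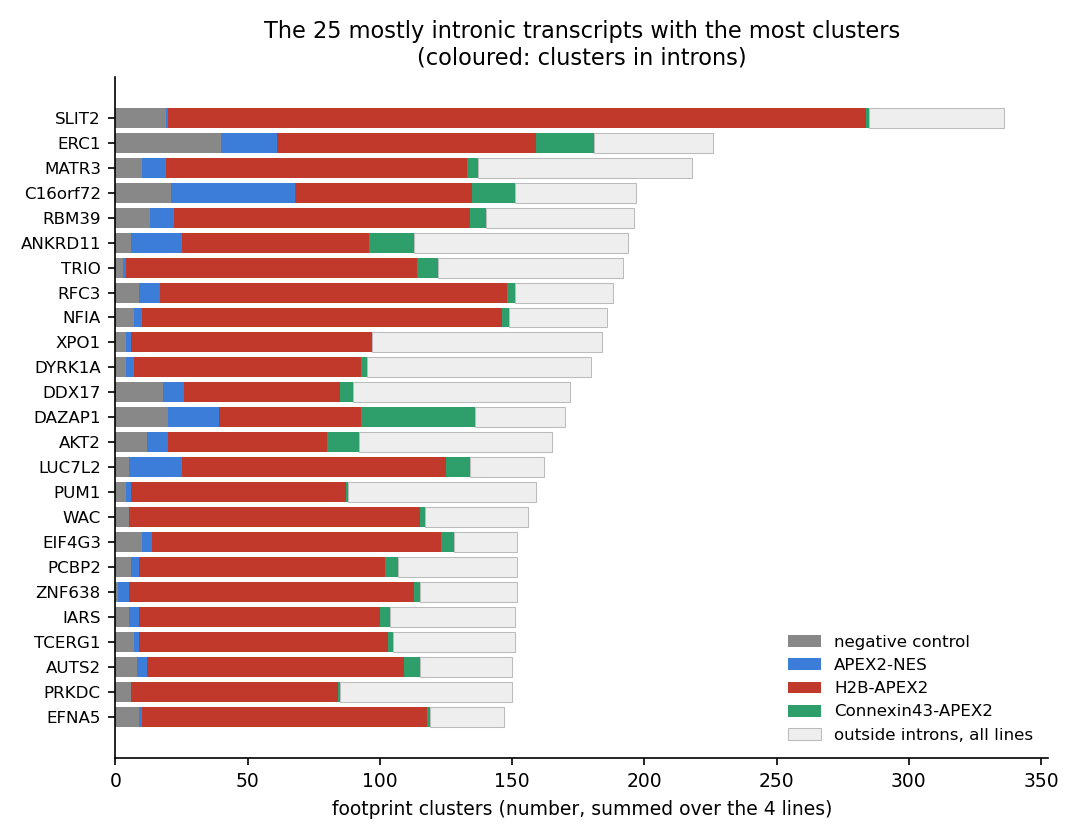
Footprint clusters (number, x axis) of the 25 mostly intronic transcripts with the most clusters (y axis), summed over the 4 lines. Coloured segments are intron clusters by line and the pale segment is all clusters outside introns, and SLIT2 stands out with 264 intron clusters from H2B-APEX2, while in ERC1, C16orf72 and DAZAP1 the other lines add visible parts.

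Reads gave another order than clusters. DDX17, an RNA helicase in splicing, had 5179 reads in H2B-APEX2, 2157 of them in introns, and 456, 358 and 283 reads in the negative control, APEX2-NES and Connexin43-APEX2, with 195, 72 and 49 in introns. CENPP, a centromere protein gene at chr9:95087766-95382815 (hg19), had 12 clusters in all, but 1 intron cluster in Connexin43-APEX2 held 4891 reads. The other lines had 156, 58 and 322 intron reads there (negative control, APEX2-NES, H2B-APEX2). This cluster made up 36.2% of the intron reads of the 972 transcripts in Connexin43-APEX2. Without CENPP the intron share of their reads in that line fell from 45.5% to 34.7%, and the reads per intron cluster from 14.9 to 9.49. In APEX2-NES, ERC1 held 1313 intron reads, 12.5% of those of all 972, and without it the intron share of reads was 20.6% in place of 22.9%.

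Outside H2B-APEX2, 278 of the 972 transcripts had at least 10 clusters over the other 3 lines, and in 62 of these most lay in introns. These 62 hold introns that were footprinted also without the chromatin line. C16orf72 had 84 of 109 such clusters in introns, ERC1 83 of 103, and DAZAP1, an RNA-binding protein, 82 of 103. CAPN15 had 53 of 76 and GPI, glucose-6-phosphate isomerase of glycolysis, 40 of 53. MVP, the major vault protein, had all 17 of its clusters there and all 24 in total in introns, with 9 in APEX2-NES, 7 in H2B-APEX2, 5 in the negative control and 3 in Connexin43-APEX2. MBD3 (43 of 60) and LUC7L2 (34 of 52) were high too, and MBD3 is named here after its values were seen. MATR3, with 23 of 80, and ANKRD11, with 42 of 95, fell under the threshold without H2B-APEX2.

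**Figure D3:**
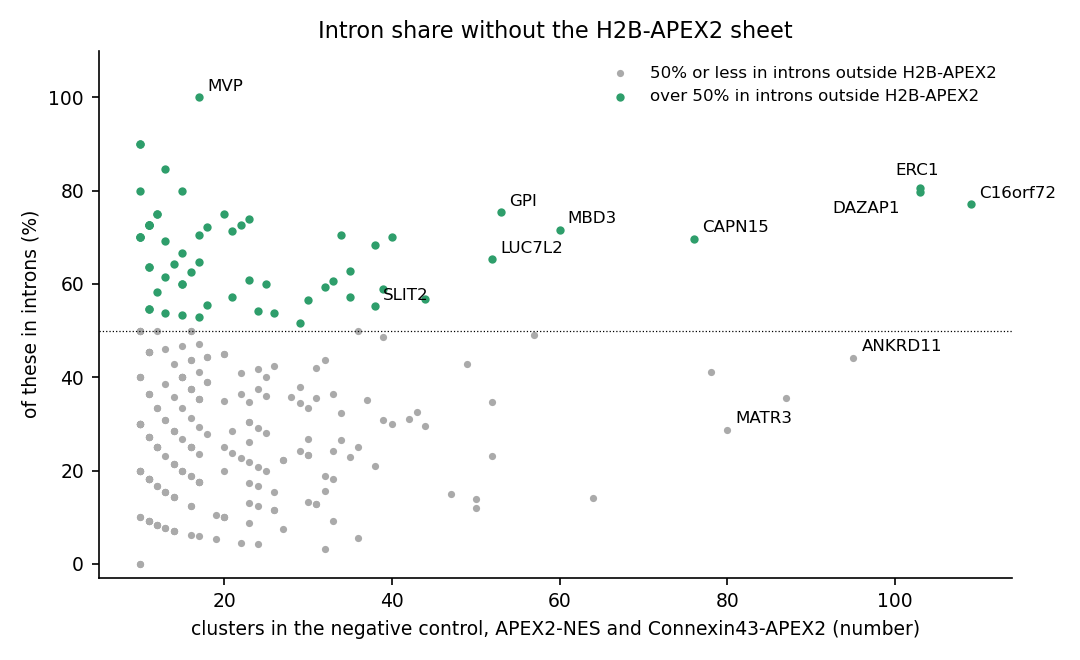
The 278 mostly intronic transcripts with at least 10 clusters in the negative control, APEX2-NES and Connexin43-APEX2 together, by that number (x axis) and the share of it in introns (%, y axis). Each point is a transcript, green points are the 62 over the dotted 50% line, and C16orf72, ERC1 and DAZAP1 combine more than 100 clusters with intron shares between 77.1% and 80.6%.

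The transcripts with at least 20 clusters were ranked by the share of their clusters that came from each line. The highest for Connexin43-APEX2 were ARPC1A, a subunit of the actin-nucleating Arp2/3 complex (7 of 21 clusters), DAZAP1 (51 of 170), CAPN15 (31 of 118), RANBP1, a Ran GTPase cofactor (11 of 42), and the readthrough gene PPAN-P2RY11 (8 of 31). For APEX2-NES they were TMEM222 (14 of 35), GRAMD1A, a sterol transfer protein (23 of 61), MVP (9 of 24) and PEX14, of peroxisomal import (7 of 20). For the negative control they were GPI (33 of 115), RPS12 (6 of 23), PDE4D, a cyclic AMP phosphodiesterase (5 of 23), MVP (5 of 24) and SMARCC1, of the SWI/SNF remodelling complex (6 of 29). H2B-APEX2 had clusters in all of these, in most of them more than the line for which they are named. By contrast, FANCL, a ubiquitin ligase of DNA repair (33 clusters, 27 in introns), CUL3, a ubiquitin ligase scaffold (27, 14), CCDC18 (24, 17), SNRPA1, a U2 snRNP protein (24, 17), and C5orf34 (22, 15) had clusters in H2B-APEX2 alone. Since the other libraries held fewer clusters, a gene without one there is a gene in which none was called at that depth.

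The median genomic span of the mostly intronic transcripts was 73.5 kb (middle 50% between 33 and 166 kb, 967 with coordinates), against 33.7 kb in the other genes with 10 clusters, 29.7 kb in the genes mostly footprinted in coding sequence and 30.8 kb in those mostly footprinted in the 3′ UTR. Exonic length differed far less, with medians of 5.69 and 5.18 kb. Of the genes with 10 clusters, 48 of 862 under 10 kb were mostly intronic (5.57%), 311 of 2828 between 10 and 50 kb (11%), 410 of 2059 between 50 and 200 kb (19.9%) and 198 of 429 of 200 kb or more (46.2%). The share thus rose with the span, and the density of clusters went the other way. H2B-APEX2 intron clusters per 10 kb of intron had a median of 33 in the shortest class, then 7.11, 1.86 and 0.488. Since the rule asks for 10 clusters, it admits no short gene of low density. Intron length was taken as the span minus the exonic length in the gene tables, which is not the annotation that placed the clusters. For RPS16 this left 0.139 kb for 11 intron clusters in H2B-APEX2 (791 per 10 kb), so the densities of short genes may be overstated. The median density was 2.55 per 10 kb over the 963 with a value, against 0.832 over 5130 of the other genes with 10 clusters.

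**Figure D4:**
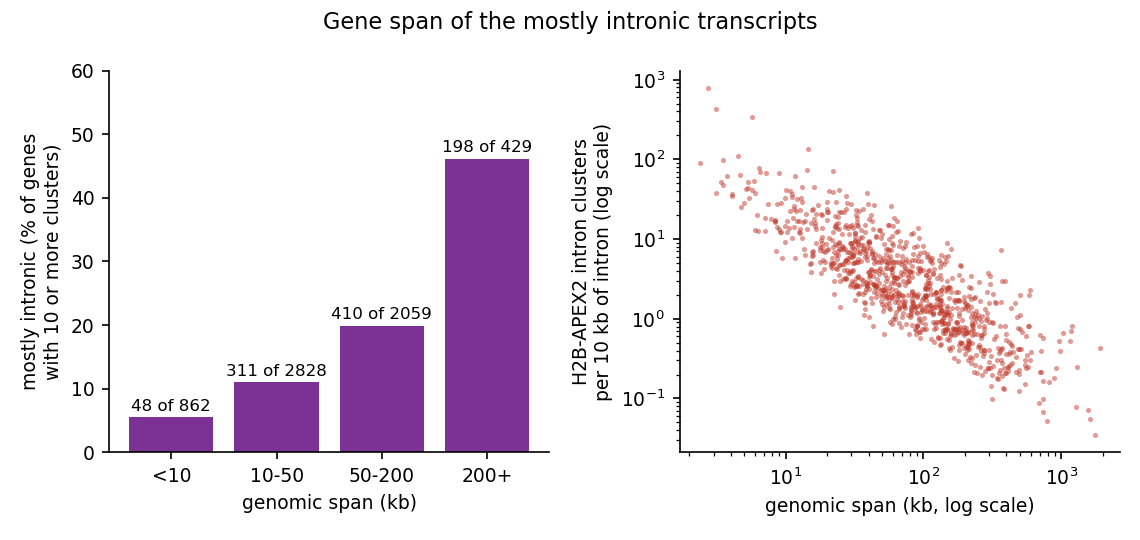
Left, the share of genes with 10 or more clusters that were mostly intronic (%, y axis) in 4 classes of genomic span (kb, x axis), with counts above the bars, rising from 5.57% to 46.2%. Right, H2B-APEX2 intron clusters per 10 kb of intron (log scale, y axis) against genomic span (kb, log scale, x axis). Each point is a mostly intronic transcript, and the density is lower in longer genes. Intron length is the span minus the exonic length, which may overstate the density of short genes.

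The longest was LRP1B, a giant lipoprotein receptor, at chr2:140988992-142889270 (hg19), 1900 kb, with 89 of 92 clusters in introns, 80 of them in H2B-APEX2, 9 in the negative control and 0 in the other lines. ROBO2, a receptor for SLIT ligands (6 of 10), NRXN3, a presynaptic adhesion protein (9 of 15), PDE4D (15 of 23) and PRKG1, a cyclic GMP-dependent kinase (32 of 36), followed at 1307 to 1743 kb. In these 5 genes the number of clusters ran from 10 to 92. Over 967 transcripts, log10 span and log10 H2B-APEX2 intron clusters had a Pearson's r of 0.16, as a description across genes, all of which come from the same library. The highest intron shares at 30 or more clusters were those of SDK1, a synaptic adhesion protein (53 of 53), NKAIN2, a sodium pump interactor (74 of 75), XKR6 (113 of 116), ERBB4, a receptor tyrosine kinase (70 of 72), and LRP1B. All of these span over 300 kb (305.3 to 1900 kb), and between 86.1% and 96.2% of their clusters came from H2B-APEX2.

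At the short end stood genes of ribosomal proteins. RPL10A spans 2.38 kb at chr6:35436185-35438562 (hg19) and had 15 of 20 clusters in introns, 8 of them in H2B-APEX2, 3 in APEX2-NES and 2 each in the negative control and Connexin43-APEX2. RPS16 had 26 of 35 in 2.74 kb, RPS12 18 of 23, RPLP1 9 of 17 and RPS13 9 of 13, none over 3.40 kb. In these genes H2B-APEX2 gave fewer of the clusters than in the long ones, with 10 of 20 in RPL10A and 15 of 35 in RPS16. Transcripts under 10 kb had 64.9% of their clusters from H2B-APEX2 and those of 200 kb or more 82.1%. In APEX2-NES the intron share of the clusters was 43.0% in the transcripts under 10 kb and 22.1% in those of 200 kb or more, and in the negative control 47.5% and 62.1%.

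Members of 16 gene lists were counted, each count read against the 15.6% of all genes with 10 clusters. Of 26 cell adhesion and synapse genes with 10 clusters 12 were mostly intronic (46.2%), with a median span of 811 kb. All 12 span at least 257 kb, and 46.2% is also the share among all genes of 200 kb or more. They included SLIT2, ROBO1, a Robo receptor (86 of 110), LRP1B and PTPRG, a receptor phosphatase (48 of 63). Of 14 genes at common fragile sites, very long genes that break under replication stress, 9 were mostly intronic (64.3%), none of them under 731 kb. Examples were AUTS2 (115 of 150), LRP1B, SDK1 and PRKG1, which partly stand in the adhesion list as well. GTPase regulators counted 20 of 58 (34.5%, median span 297 kb), with TRIO, the Ras regulator NF1 (61 of 110), DOCK4 (55 of 70) and RAB3GAP2 (26 of 40). The list of protein kinases counted 26 of 90 (28.9%, median span 201 kb), or 25 of 89 (28.1%) without CAMKMT, a methyltransferase that stands in it. Among them were TRIO, DYRK1A (95 of 180), AKT2 (92 of 165) and PRKDC, the DNA-dependent kinase of end joining (85 of 150). None of these lists was matched for gene length.

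Among regulators of the nucleus, 19 of 67 nuclear RNA-binding proteins (28.4%) were mostly intronic, with a median span of 32.5 kb, close to that of the genes outside the set. MATR3, RBM39, DDX17 and LUC7L2, a U1 snRNP-associated protein (134 of 162), led them. Of their clusters outside H2B-APEX2, 223 of 661 were in introns. Of 36 transcripts known for detained introns, 10 were mostly intronic (27.8%), among them RBM39, DDX17, PNISR and TRA2B, a splicing activator (80 of 122). Chromatin regulators counted 18 of 82 (22.0%), with NIPBL, the cohesin loader, ARID4B (35 of 60), MLLT3 (37 of 54) and MLLT10 (30 of 48). Ubiquitin ligases and deubiquitinases counted 14 of 63 (22.2%), with UBE3C (75 of 126), USP10 (33 of 48) and RFWD2 (25 of 30). The median spans of these 18 and 14 were 197 and 152 kb. Of all genes with 10 clusters, 19.9% were mostly intronic between 50 and 200 kb and 46.2% at 200 kb or more. Neither list was matched for gene length. Zinc finger genes counted 30 of 204 (14.7%), near the share of all genes, with ZNF638 (115 of 152), ZNF644 (70 of 116), ZNF544 (60 of 77) and ZNF292 (42 of 76).

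The lists of ribosomal protein and respiratory chain genes held mostly short transcripts, with a median span of 17.7 kb in the second. Ribosomal protein genes counted 24 of 48 (50%, median span 5.54 kb), with RPS24 (59 of 73), RPS19 (47 of 60), RPS3 and RPL5 (28 of 43 and 28 of 41). Subunits of the respiratory chain counted 13 of 50 (26%), with NDUFV2 (38 of 46), NDUFA10 (24 of 32), UQCRC2 (18 of 29) and ATP5G2 (16 of 26). Hosts of snoRNAs counted 11 of 34 (32.4%), with RCC1 (55 of 97), NAP1L4 (60 of 89), WDR43 (41 of 57) and RPS3. A list written as hosts of microRNAs counted 8 of 42 (19%), with SLIT2 and ZFR, and 6 of the 8 hold a microRNA gene on their strand in the gene tables. The list also holds DROSHA, the nuclease that cuts primary microRNAs (57 of 89), and PPP6R2 (17 of 31), which hold none there, and it lacks most of the 74 hosts counted by position below. The 1 nuclear long noncoding RNA with 10 clusters and the 6 HEK293 markers were not mostly intronic, and none of 24 fibroblast-like genes had 10 clusters. Ribosomal protein and respiratory chain genes have near-identical processed pseudogenes elsewhere in the genome, between which the authors' counting could split reads, so the split between exon and intron in them is uncertain.

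Ribosomal protein genes often carry snoRNAs, which guide the modification of ribosomal RNA, in their introns. Of the 24 mostly intronic ribosomal protein genes 12 held a snoRNA gene on their own strand, and of the other 24 with 10 clusters 9 did. Those with a snoRNA had 181 of 248 clusters in introns (73.0%), and those without 257 of 339 (75.8%). By line these were 128 of 149 and 201 of 233 in H2B-APEX2, 21 of 33 and 14 of 32 in Connexin43-APEX2, 20 of 41 and 25 of 45 in APEX2-NES. The negative control had 12 of 25 and 17 of 29. All of these genes were chosen for an intron share over 50%, so nothing is read from their likeness. Over all 972 transcripts, 42 of 967 with coordinates held a snoRNA gene on the same strand (4.34%), against 118 of 5211 others (2.26%), and 74 held a microRNA gene (7.65%), against 210 (4.03%). These shares were not matched for gene length.

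A few introns contain copies of other genes. PCBD2, a pterin-carbinolamine dehydratase gene at chr5:134240596-134343649 (hg19), had all 26 clusters in introns, 18 of them in H2B-APEX2 (2251 reads), 5 in the negative control (631), 2 in Connexin43-APEX2 (61) and 1 in APEX2-NES (184). Its span holds MTND6P4, MTND5P11 and MTND4P12, nuclear copies of mitochondrial genes, the first of these on the strand of PCBD2. In bound RNA these copies had an RPKM (reads per kilobase of gene, scaled to the depth of the library) of 226, 146 and 219 in the negative control. H2B-APEX2 had 193, 93.2 and 218. APEX2-NES had 62.6, 16.2 and 39.1 and Connexin43-APEX2 45.2, 18.2 and 40.0. The negative control and H2B-APEX2 were high for these copies, as they were for the reads of PCBD2, and whether its clusters lie on them was not tested. ERBB4, SPTLC1 and MAGI3 each hold 1 such copy, with an RPKM of at most 0.0283 in any of these bound libraries.

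Read shares between lines were compared by a fixed size, a ratio of at least 4-fold whose 95% interval lies outside 2-fold, over all genes with at least 10 reads in the pair. Against APEX2-NES, 409 of the 972 transcripts were higher in H2B-APEX2 and 15 lower, where 16.7% and 10.6% of all tested genes passed. In 180 of the 972, APEX2-NES had no cluster. The rule that chose the transcripts leans on the same H2B-APEX2 counts, so nothing is read from this excess. Counted on reads outside introns, 223 of 922 were higher and 56 lower, where 13.9% and 11.4% of all genes passed. Counted on intron reads, as a share of the line's intron reads, 201 of 972 were higher and 60 lower, where 6.57% and 7.24% passed. Against the negative control, 199 were higher in H2B-APEX2 and 17 lower, where 8.99% and 6.1% of all genes passed. Outside introns 97 of 905 were higher and 50 lower there, where 7.83% and 6.61% passed, and in introns 83 of 972 and 37, where 2.79% and 6.27% passed. Both comparisons use the same H2B-APEX2 library.

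In Connexin43-APEX2 against APEX2-NES, 718 of the transcripts were tested. Of these, 68 were higher (9.47%) and 73 lower (10.2%), where 6.27% and 11.6% of all genes passed. CENPP, from its 1 cluster, was among those higher in Connexin43-APEX2, with 4891 reads there and 64 in APEX2-NES. RYR2, a calcium release channel of the endoplasmic reticulum, had 592 reads in Connexin43-APEX2 and 268 in APEX2-NES, but 29 in H2B-APEX2 and 5 in the negative control, and of these 588, 263, 29 and 5 lay in introns, and it is named after its values were seen. By reads, the 2 lines with APEX2 outside the nucleus stood above the other 2 in RYR2. By intron clusters H2B-APEX2 was highest with 4, against 2 for each of those 2 lines and 1 for the negative control. The gene had 11 clusters in all, so its read order rests on few clusters, and a link to the place of APEX2 was not tested.

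Bound and total RNA libraries were not used by the rule. The rule still leans on the footprints of the H2B-APEX2 line, and the bound RNA of that line enters the RPKM filter used here. An excess in the RNA of H2B-APEX2 is therefore not independent of how the transcripts were chosen. They were compared as log2(RPKM + 1), bound minus total, line minus line, centred on the median gene, with genes kept from a mean RPKM of 1 upward, and the size rule here was a difference of 2-fold or more. The added 1 understates the change of low genes. H2B-APEX2 has values in the 2017 table only, so its differences could not be compared between tables. In H2B-APEX2 against APEX2-NES, 315 of the 972 transcripts were measured at this level, and of these 142 were higher and 45 lower, where 25.1% and 24.9% of all 5055 tested genes passed. Their median log2 difference was 0.86 (middle 50% between -0.10 and 1.52), against 0.15 in the 1547 other genes with 10 clusters and 0 in all genes by centring. Among the other genes with 10 clusters, 400 were higher and 267 lower. Against the negative control, the background of the capture, and with the same H2B-APEX2 libraries, 145 of 336 were higher and 20 lower, where 25.4% and 20.5% of all genes passed.

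Base composition moved with this difference. The mostly intronic transcripts measured here had a median GC content of 43.9% and the others with 10 clusters 47.5%, in the longest transcript of each gene. In 5 classes of equal size by GC content, the median difference of the mostly intronic transcripts was 1.48, 1.25, 0.69, -0.14 and -1.16 from the lowest to the highest class. In the other genes with 10 clusters it was 1.10, 0.88, 0.34, -0.27 and -1.03. In the first 4 classes the mostly intronic transcripts lay higher, by 0.13 to 0.38, and in the highest class they lay lower. The fall from the lowest to the highest class was larger than the gap between the groups in any class, and the part of GC content in the result was not tested beyond these values. Fibroblast-like genes, another marker set, had a summed bound RPKM of 12 in H2B-APEX2 and of 121, 271 and 362 in Connexin43-APEX2, APEX2-NES and the negative control over 24 genes, with POSTN at 0 in Connexin43-APEX2. In total RNA the same sums were 34 for the negative control, 24.4 for APEX2-NES, 18.3 for H2B-APEX2 and 63.7 for Connexin43-APEX2, with POSTN at 0 in all but the first, so that H2B-APEX2 and APEX2-NES lay closer together there than in bound RNA. Their part in the result was not tested. In such bulk libraries fewer cells of a type and less RNA per cell cannot be told apart.

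**Figure D5:**
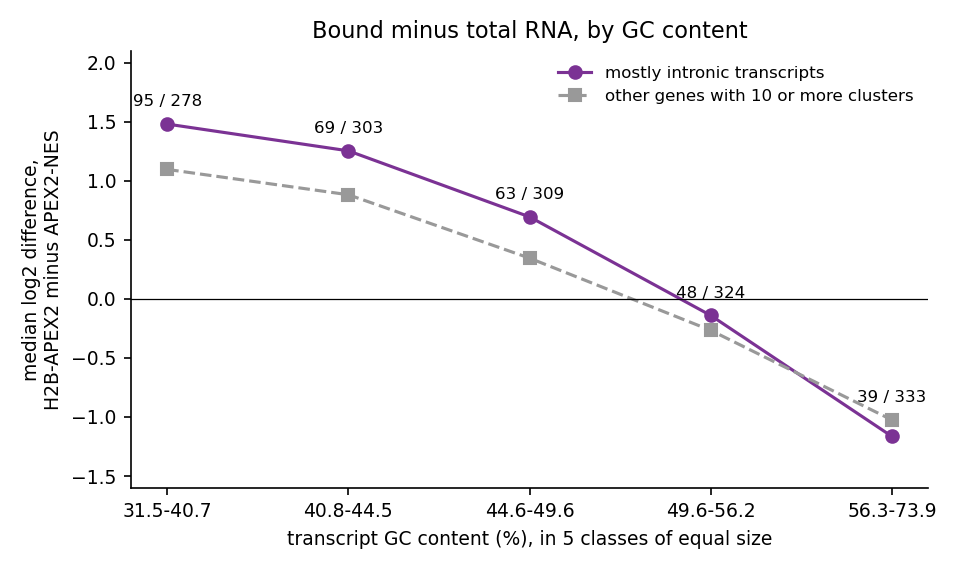
Median log2 difference of bound minus total RNA, H2B-APEX2 minus APEX2-NES (y axis), in 5 classes of transcript GC content (%, x axis), for mostly intronic transcripts (circles) and other genes with 10 or more clusters (squares). Numbers above the points are the genes of the first and the second group, and the mostly intronic transcripts run from 1.48 in the lowest class to -1.16 in the highest.

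The highest of the mostly intronic transcripts in H2B-APEX2 was PIN4, a peptidyl-prolyl isomerase, with a bound RPKM of 18.7 in H2B-APEX2, 0.75 in APEX2-NES, 1.48 in the negative control and 0.979 in Connexin43-APEX2, and a log2 difference from APEX2-NES of 3.53. EIF3E, a translation initiation factor subunit, had 40.3, 4.79, 4.18 and 5.58 (difference 3.23), and HMGN3, a nucleosome-binding protein, 65.5, 6.91, 8.65 and 3.43 (3.08). VRK1, a nuclear kinase, was at 3.04 and SSBP1, the single-stranded DNA-binding protein of mitochondria, at 3.03. In each of these the 3 other lines lay well below H2B-APEX2. MATR3 had 29 in H2B-APEX2 and 4.91 in APEX2-NES (difference 1.93) and RBM39 5.13 and 2.15 (1.08), while XPO1 (0.31) and DDX17 (0.02) did not pass.

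The lowest were RPS29, with a bound RPKM of 1.98 in H2B-APEX2, 26.3 in APEX2-NES, 14.6 in the negative control and 22.3 in Connexin43-APEX2 (difference -3.32), RPLP1 (-3.23), RPS19 (-3.07) and NDUFB7, a subunit of respiratory complex I (-2.98). SNRNP70, a U1 snRNP protein, was listed at 0 in the bound RNA of H2B-APEX2, against 5.79 in APEX2-NES, and gets no fold. The list counts that follow cover mostly intronic transcripts only. Of all 315 of these measured, 45.1% were higher and 14.3% lower, with a median of 0.86, and the lists are read against these values. Of all tested genes 25.1% were higher and 24.9% lower. The ribosomal protein genes went both ways. Of 24 measured, 6 were higher, such as RPL5 (2.92, bound RPKM 499.9 against 86.4) and RPS24 (1.77), and 10 lower, such as RPS16 (-2.10) and RPS3 (-1.28), with a median of -0.39. The nuclear RNA-binding proteins had a median of 0.98 over 13 measured, with 6 higher and 1 lower, the detained-intron transcripts 1.03 over 6, with 3 higher and 0 lower, and the snoRNA hosts -1.28 over 7, with 0 higher and 4 lower. The chromatin regulators had 4 higher of 4 measured, the protein kinases 3 higher and 0 lower of 5, and the respiratory chain subunits 2 higher and 3 lower of 12, with a median of 0.11. Of 2 genes of the microRNA host list 1 was higher, as was the 1 zinc finger gene measured, and the 1 gene of the ubiquitin list did not pass. Of the adhesion, fragile-site and GTPase regulator lists none reached the mean RPKM of 1.

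Connexin43-APEX2 against APEX2-NES, which shares the APEX2-NES libraries of 2017 with the first comparison, was taken from both RNA tables, of 2016 and 2017. Of 270 mostly intronic transcripts measured, 0 were higher and 1 lower in both tables, where 0.158% and 4.36% of all 5069 tested genes passed. The median gene had differed by 1.75 in the 2016 table and by -0.14 in that of 2017 before centring. The median of the mostly intronic transcripts was 0.15 in the 2016 table and 0.14 in that of 2017, against 0.19 and 0.04 in the others with 10 clusters. The transcript that passed was MVP, with differences of -1.52 and -1.02 and a bound RPKM in 2017 of 0.387 in H2B-APEX2, 0.860 in Connexin43-APEX2, 2.85 in the negative control and 3.02 in APEX2-NES.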

How the data were processed

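Total RNA was depleted of ribosomal RNA and bound RNA was not, and footprint libraries were made by ligating a 3′ and then a 5′ adapter, per the labels' protocols. The submitters' processing notes name hg19, bcl2fastq 2.17.1 and TopHat (no version), while for the cluster caller, its thresholds and the read counter no name is given in the sources used here. Per gene and gene region, the authors deposited the counts of footprint clusters and of their crosslinked reads, with long and short footprints pooled. The gene tables hold expected counts and RPKM values as deposited by the authors, with 0.001 standing for 0 reads and 1e-07 for an RPKM of 0. Columns named only by a line in the 2016 table were taken as bound RNA, since 1 other column there is named total, which was used for every line and so cancels between lines.

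Sheets were joined by Ensembl identifier. Clusters assigned to no region stayed in the denominator. The members and all gene lists were chosen with earlier results of these data known. Named genes were those with the most clusters, reads or intron share, the largest share from a line, the longest and shortest spans, those nearest the threshold, the 5 highest and lowest in RNA and the top 4 of each list, a few of which are not reported here; "ribosomal proteins" are those named RPL or RPS with a number. Spans and nested genes are hg19, counted from 1, from the gene tables (967 of 972 found), GC content is that of the longest GENCODE 29 transcript, and microRNA sequences are from RefSeq GRCh38.p14. Footprint ratios have exact conditional binomial 95% intervals over 3 pairs of lines. The tools were scipy 1.17.1, pandas 2.3.3, matplotlib 3.10.9 and numpy 2.4.6 in Python 3.11.15, and both size rules were checked on simulated counts. With 1 sample a group no test across samples was possible.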

Additional observations from a re-analysis of the deposited data

How the results depend on the processing

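No paired analysis was possible because each of the 12 groups has 1 sample. The number of mostly intronic transcripts, 972, became 604 above 60% and 232 above 75% intron share and 64 without the H2B-APEX2 sheet, and stayed within 1.5 times (653 to 1237) in the other settings. With reads in place of clusters 697 genes passed, 665 of them shared. The share of a line's clusters in them (negative control, APEX2-NES, H2B-APEX2, Connexin43-APEX2) was 11.2%, 7.96%, 14.6% and 11% by reads, and 11.7%, 7.75%, 19.4% and 9.09% at 20 clusters. Chosen without H2B-APEX2 it was 2.38%, 1.56%, 2.15% and 1.96%, where the negative control and no longer H2B-APEX2 was highest. That last choice leans on the counts of the lines that were kept. The intron share over all genes was 15.2%, 6.15%, 42.7% and 10.4% of assigned clusters, and by reads 10.4%, 3.94% and 19.9% in the first 3 of these lines, so that H2B-APEX2 stayed highest. In the lines other than H2B-APEX2 at most 112 of the 972 had 10 clusters, which limits what they show of single genes. Medians of span became 5.69 and 5.18 kb as exonic length, and stayed within 1.5 times in the other settings.

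Footprint counts by the size rule, higher then lower, for H2B-APEX2 against APEX2-NES, Connexin43-APEX2 against APEX2-NES and H2B-APEX2 against the control, moved as follows. A 2-fold rule gave 666 and 48, 148 and 182, 440 and 62. Clusters gave 91 and 0, 1 and 0, 3 and 0. Intron reads alone gave 201 and 60 in the first and 83 and 37 in the third, and reads outside introns, added after seeing the data, 223 and 56, and 97 and 50. In bound minus total RNA, a mean RPKM of 5 gave 60 and 26 in the first and 57 and 12 in the third, as fewer genes were tested. RPKM recomputed from expected counts let more genes be tested. It gave 289 and 58 of 680 in the first (42.5% and 8.53%), where 25.6% and 23.7% of all genes passed. In the third it gave 284 and 38 of 689 (41.2% and 5.52%), where 26.3% and 20.8% of all genes passed. For Connexin43-APEX2 the 0 higher became 8 uncentred, 5 at a pseudocount of 0.1, 7 unfiltered and 3 recomputed, and the 1 lower became 3 at that pseudocount, 2 recomputed and 0 uncentred, unfiltered, at an RPKM of 5 and in bound RNA alone. Except where a setting's construction shows it, the cause was not tested.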
